A study of Homo sapiens with 9 samples.

Results

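The genes described here are receptor tyrosine kinases, ephrins and growth factors, taken as a list of 39 symbols (25 receptors and 14 ligands), and 37 of them (23 receptors and all 14 ligands) were measured among the 11963 genes on the arrays. A gene was measured when at least 1 probe set, the small group of array probes that reports a transcript, was annotated with that symbol alone. Where a gene had several, the brightest by its mean over the 9 arrays stood for it and the others served as a check, which gave 93 probe sets in all. Of the 37 genes, 11 had a single probe set and FGFR2 had 10. DDR1 and EPHB2 were matched by no probe set under this rule and were not analysed here. By the probe set that stood for them, 25 of the 37 lay outside the dimmest 40% of probe sets, and 12 lay inside it (ERBB3, ERBB4, HGF, MERTK, FGFR4, KITLG, FLT1, FLT4, NTRK2, ROR1, ROR2 and EFNB1).

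The cells were U251MG, an established human glioma line. Of 3 groups of 3 cultures, the reagent group received the transfection reagent Oligofectamine with no siRNA. The scrambled group received Oligofectamine with a non-targeting siRNA at 100 nM, and the WT1 group received Oligofectamine with an siRNA against WT1 at 100 nM. All 9 cultures therefore met the reagent, and the line is a single one. WT1 is a zinc finger transcription factor. Cultures carry replicate numbers 1 to 3 in each group, and the numbers are used as pairs here, so that each difference is taken between cultures of the same number. What the numbers stand for, such as a day or a passage, the sources used here do not say.

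Receptor tyrosine kinases are membrane proteins that bind a growth factor outside the cell, come together in pairs and phosphorylate each other inside it, and the signal passes through adaptors to the RAS and PI3 kinase pathways. Eph receptors are the largest family of them, and their ligands, the ephrins, stay attached to the neighbouring cell, so that signalling needs contact and can run in both directions. In glioma these receptors are known for driving growth and invasion, and EGFR, MET and the FGF and Eph receptors have each been studied there.

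WT1 binds G-rich DNA, and the stretches of 250 bases before the transcription start of HBEGF, VEGFC and GAS6 are shown as examples of ligands with a called probe set. FGFR1 and NRG1 also had called probe sets, and their stretches are not shown here. They are RefSeq sequences on GRCh38.p14, all from the minus strand and printed 5′ to 3′, at chr5:140346604-140346853 for HBEGF, chr4:176792923-176793172 for VEGFC and chr13:113864077-113864326 for GAS6. Capitals mark a match to either of 2 motifs that were searched on both strands, GCGGGGGCG and GCGTGGGNG.
HBEGF: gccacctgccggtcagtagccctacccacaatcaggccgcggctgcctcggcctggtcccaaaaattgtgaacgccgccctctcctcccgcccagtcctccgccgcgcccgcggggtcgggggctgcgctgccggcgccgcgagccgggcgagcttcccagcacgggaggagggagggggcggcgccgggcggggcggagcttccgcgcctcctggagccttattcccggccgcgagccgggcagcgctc
VEGFC: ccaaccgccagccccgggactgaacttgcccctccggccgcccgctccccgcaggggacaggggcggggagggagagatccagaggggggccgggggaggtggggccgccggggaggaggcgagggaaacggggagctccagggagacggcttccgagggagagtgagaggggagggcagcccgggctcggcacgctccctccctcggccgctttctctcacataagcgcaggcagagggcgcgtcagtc
GAS6: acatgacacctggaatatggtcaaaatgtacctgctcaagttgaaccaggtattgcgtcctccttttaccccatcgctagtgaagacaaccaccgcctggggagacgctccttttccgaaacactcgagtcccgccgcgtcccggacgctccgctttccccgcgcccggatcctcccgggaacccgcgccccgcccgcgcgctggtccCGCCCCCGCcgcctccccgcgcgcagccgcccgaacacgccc
GAS6 held GCGGGGGCG on the opposite strand, beginning 42 bases before the start along the printed strand, and the windows of HBEGF and VEGFC held neither motif. Of 35116 such windows in the RefSeq table, 4.72% held GCGGGGGCG and 2.51% held GCGTGGGNG. The table matched 32 of the measured genes with 46 windows, since a gene can have several starts. GCGGGGGCG stood in 6 of these 46 windows, 1 each of EPHA4, FGFR2, FGFR3, FLT1, GAS6 and VEGFB, and GCGTGGGNG in 1, of FGFR3. No stretch of bases can match both motifs on the same strand. A match describes these letters only.

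All values are log2 expression, differences are log2 differences fitted within replicate numbers with their standard error (SE), n = 3 cultures per group, and adjusted p-values are from limma over all 22215 probe sets. A gene was called when its adjusted p was under 0.05. The groups sit on arrays with medians of 6.45 to 6.53, and the number of arrays limits the precision. The submitters call the cultures of a group biological triplicates. Each p-value sets a fitted difference against an error that is shared by the 3 comparisons of a probe set. That error comes from how far group differences vary from number to number among these cultures. It is pooled over the 3 groups and drawn by limma towards the error of all probe sets. Over 9 glial and glioma line markers the mean of an array was 8.23 to 8.72, and 2 of the 9 lay inside the dimmest 40% of probe sets. Of the 9, VIM, CD44, NES and SOX9 read 8.62 or more on every array, while GFAP read 5.36 to 9.25 and AQP4 4.16 to 4.58. Levels of S100B, ALDH1L1 and SLC1A3 are not given here. The mean over 7 endothelial markers was 5.25 to 5.51, and over 7 immune cell markers 5.42 to 5.64. Over 6 neuron markers it was 6.86 to 7.04, with NEFL alone at 11.14 or more, and over 5 oligodendrocyte markers 5.73 to 5.86. In the endothelial, immune cell, neuron and oligodendrocyte lists 0 were called.

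The siRNA target was examined before the members. WT1 (probe set 206067_s_at) was dim, brighter than 35.2% of probe sets and so inside the dimmest 40%. It read 4.76, 5.09 and 4.82 with the WT1 siRNA in numbers 1, 2 and 3, against 5.59, 5.89 and 5.41 with the scrambled siRNA and 6.05, 6.58 and 5.89 with reagent alone. The WT1 group lay below both other groups with no overlap. The difference was −0.74 (SE 0.0811, adjusted p = 0.00336) from scrambled and −1.29 (adjusted p = 0.000619) from reagent. The scrambled group itself differed from reagent by −0.55 (adjusted p = 0.0164), a call lost without any 1 scrambled culture, reagent culture 1 or 2, or number 1 or 2 (adjusted p from 0.0607 to 0.305). Without number 2 both falls with the WT1 siRNA missed the threshold (adjusted p = 0.0795 and 0.0762). The other probe set of WT1 (216953_s_at), dimmer still at 25.1%, gave −0.18 (adjusted p = 0.420) and −0.15 (adjusted p = 0.516). In RNA from whole cultures, fewer cells with a transcript and less of it per cell cannot be told apart.

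The comparison of WT1 siRNA with scrambled siRNA asked which growth factor and receptor transcripts differ when WT1 is lowered, with siRNA present in both groups. HBEGF, a membrane-bound ligand of the epidermal growth factor receptor, was lower and FGFR1, a receptor for fibroblast growth factors, was higher. These were the only members called, 2 of 37 or 5.41%, against a background of 3.70% of all genes. Among all probe sets of the members 5 of 93 (5.38%) were called, against 3.27% of all probe sets. Fitted without the replicate block, no member was called in any comparison (smallest adjusted p = 1.00). Most members lay close to 0, with a median difference of 0.03 (−0.00 over all genes), 31 of 37 within 0.2 of 0, and 23 above 0 against 14 below. The 95% interval of the difference lay within 0.5 of 0 for 33 of 37, the exceptions being HBEGF, TGFA, FGFR1 and EPHA3. Shares of all genes were not counted for these limits or for the sign, here and in the comparisons below. These counts therefore describe the members alone and do not set them apart from other genes. Of 9 glial markers only SLC1A3, a glutamate transporter, was called, at −0.70 (adjusted p = 0.000859) against scrambled and 0.49 (adjusted p = 0.00641) for scrambled against reagent (calls lost without number 2, adjusted p = 0.0596 and 0.285, and the latter also without number 1, scrambled culture 2 or reagent culture 2, adjusted p from 0.0570 to 0.0889), and its part in the members' differences was not tested.

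Against reagent alone, the WT1 siRNA gave 0 called members (0.00%, with 1.40% of all genes called), and 5 of 37 members had an unadjusted p under 0.05. Of all 22215 probe sets, 3359 had an unadjusted p under 0.05 in this comparison, and the share of all genes was not counted. So the 5 do not set the members apart. Of the 93 probe sets of the members 0 were called, where 1.25% of all probe sets were. The median was 0.04, and 32 of 37 lay within 0.2 of 0. No member was called against both controls, where 0.769% of all genes were, and no probe set of a member, where 0.644% of all were. For 34 of 37 the 95% interval lay within 0.5 of 0, the exceptions being TGFA, VEGFC and EPHA3. The comparisons share the WT1 siRNA cultures, so their values stand side by side here and are not independent.

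The scrambled siRNA was also set against reagent alone, which compares cultures with and without an siRNA. WT1 itself was lower with scrambled in this comparison, as given above. VEGFC, a growth factor of lymphatic vessels, was higher, and it was the only member called, 1 of 37 or 2.70% against 1.21% of all genes. Over probe sets the count was 3 of 93 (3.23%) against 1.09%. The median was 0.02, and 21 of 37 were above 0. Members with the same sign in 3 of 3 numbers were 12 of 37 (32.4%) for WT1 siRNA against scrambled, 11 (29.7%) for WT1 siRNA against reagent and 15 (40.5%) for scrambled against reagent, beside 36.5%, 34.4% and 39.1% of all genes. These shares stood near those of all genes.

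**Figure D1:**
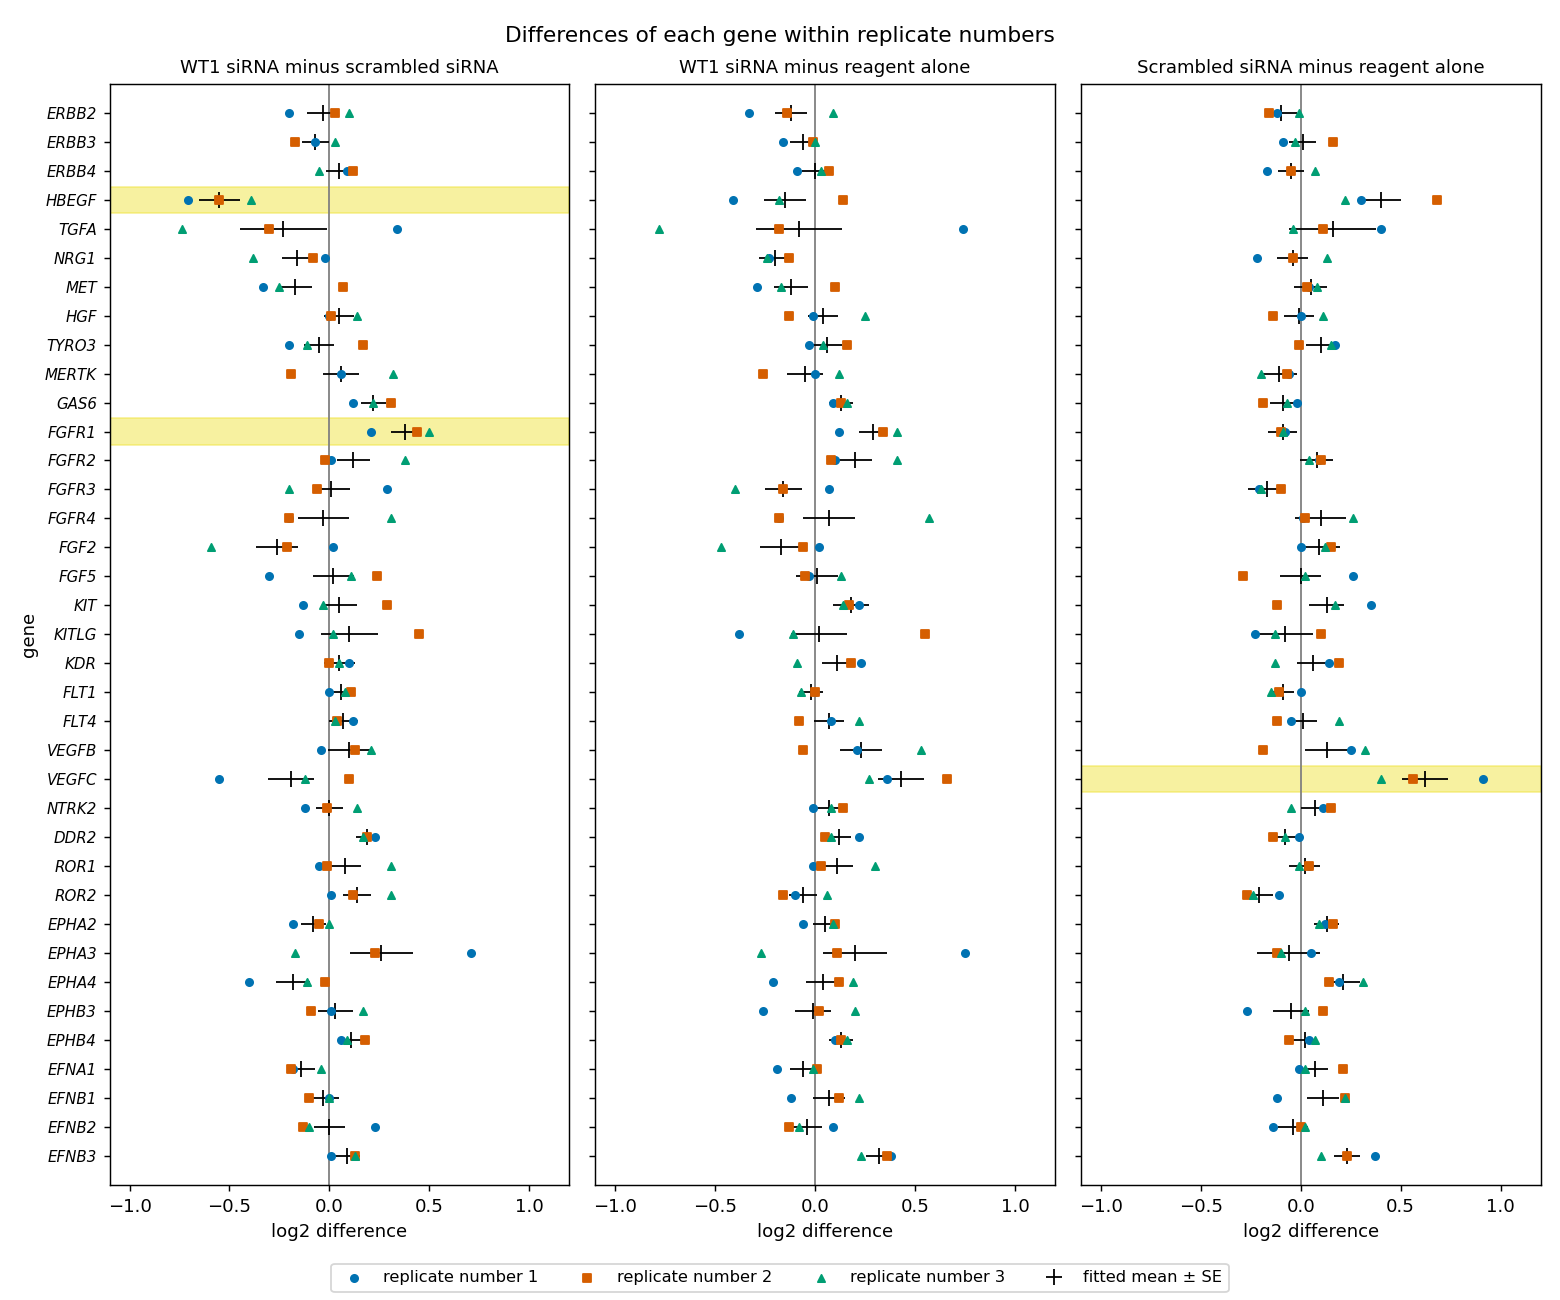
Log2 difference of each of the 37 measured genes (rows) in the 3 comparisons (panels), as 1 symbol per replicate number and a black tick with a bar for the fitted mean ± SE, with called genes shaded. HBEGF at −0.55 and FGFR1 at 0.38 are shaded against scrambled, VEGFC at 0.62 for scrambled against reagent, and no gene for WT1 siRNA against reagent.

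Among the ligands of ERBB receptors HBEGF fell. Its probe set 203821_at read 7.00, 7.60 and 6.93 with the WT1 siRNA, 7.71, 8.14 and 7.32 with scrambled, and 7.41, 7.46 and 7.10 with reagent alone. Within each number the scrambled culture was the highest of the 3, and the groups overlapped across numbers. The difference of WT1 siRNA from scrambled was −0.71, −0.55 and −0.39 in numbers 1, 2 and 3, with a fitted mean of −0.55 (SE 0.103, adjusted p = 0.0242), or 68.3% of the scrambled level. From reagent alone it was −0.15 (95% interval −0.38 to 0.08, adjusted p = 0.540), and scrambled minus reagent was 0.40 (adjusted p = 0.121).

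Another HBEGF probe set (38037_at) gave 6.49, 6.89 and 6.26 with the WT1 siRNA, 7.02, 7.57 and 6.69 with scrambled and 6.70, 6.87 and 6.33 with reagent. Again the scrambled culture was highest in every number. Here the fall against scrambled was −0.54 (SE 0.0791, adjusted p = 0.00863), scrambled was higher than reagent by 0.46 (adjusted p = 0.0299), and WT1 siRNA differed from reagent by −0.08 (adjusted p = 0.671). The dimmest probe set (222076_at) gave −0.04 (adjusted p = 0.925) against scrambled. The call of 203821_at was lost when WT1 siRNA culture 1 or 2, scrambled culture 1 or 2, or any 1 replicate number was left out (adjusted p from 0.0531 to 0.160), and that of 38037_at when WT1 siRNA culture 2, scrambled culture 2 or number 2 was (0.0524 to 0.140). The higher scrambled level of 38037_at against reagent was no longer called without WT1 siRNA culture 2 or any 1 of the scrambled cultures, reagent cultures or numbers (adjusted p from 0.0526 to 0.437).

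TGFA, another ligand of the same receptor, had the widest error of all members (SE 0.216). It read 8.06, 7.37 and 7.32 with the WT1 siRNA, 7.72, 7.67 and 8.06 with scrambled and 7.32, 7.55 and 8.10 with reagent, so that the WT1 siRNA culture was the highest in number 1 and the lowest in numbers 2 and 3. Its differences were −0.23 (adjusted p = 0.682) and −0.08 (adjusted p = 0.914).

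NRG1, the ligand of ERBB3 and ERBB4, read 7.73, 7.54 and 7.07 with the WT1 siRNA (206343_s_at), 7.75, 7.62 and 7.45 with scrambled and 7.97, 7.66 and 7.31 with reagent. The WT1 siRNA culture was the lowest of its number in all 3, by −0.16 against scrambled (adjusted p = 0.363) and −0.20 against reagent (adjusted p = 0.268). Its probe set 208241_at moved the other way against scrambled, by 0.34 (adjusted p = 0.0341), with scrambled below reagent by −0.38 (adjusted p = 0.0406), so the 6 probe sets of NRG1 did not share a direction. The other 4 lay between 0.05 and 0.15 against scrambled, with 0 called. The call of 208241_at against scrambled was lost with only the 2 groups fitted (adjusted p = 0.0585) and without any 1 WT1 siRNA culture, any 1 scrambled culture or any 1 number (adjusted p from 0.0706 to 0.198), and that against reagent without WT1 siRNA culture 2 or any 1 of the scrambled cultures, reagent cultures or numbers (0.0664 to 0.285).

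The ERBB receptors among the members showed no called difference. EGFR, the receptor of HBEGF and TGFA, was not on the list of members and is given with the further receptors below. ERBB2, which has no known ligand of its own and pairs with the others, differed by −0.03 and −0.12 from scrambled and reagent. ERBB3, whose kinase is nearly inactive, and ERBB4 were dim. By the probe sets that stood for them, their differences in the 3 comparisons lay between −0.07 and 0.05. The other ERBB4 probe set (214053_at), also dim, was higher with the WT1 siRNA in 3 of 3 numbers against either control. It gave 0.23 against scrambled and 0.16 against reagent (adjusted p = 0.146 and 0.348). The other ERBB3 probe set (202454_s_at) gave −0.02 and 0.14 (adjusted p = 0.946 and 0.486).

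FGFR1 (211535_s_at) read 7.48, 8.22 and 8.36 with the WT1 siRNA, 7.27, 7.77 and 7.86 with scrambled, and 7.35, 7.87 and 7.95 with reagent. The WT1 siRNA culture was the highest of its number in all 3, and the groups overlapped because number 1 was low in each of them. The rise against scrambled was 0.38 (SE 0.0713, adjusted p = 0.0238), a 1.30-fold difference, and that against reagent 0.29 (adjusted p = 0.0893) did not pass. Scrambled and reagent differed by −0.09 (95% interval −0.25 to 0.07).

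The 5 other FGFR1 probe sets gave 0.04 to 0.33 against scrambled, with 0 called. The nearest was 210973_s_at at 0.33 (adjusted p = 0.0708), which read 7.82, 7.74 and 8.25 with the WT1 siRNA, 7.64, 7.32 and 7.85 with scrambled and 7.74, 7.56 and 7.77 with reagent. With the mean over the 6 probe sets the FGFR1 difference was 0.16 (adjusted p = 0.127). With only the 2 groups fitted the adjusted p of FGFR1 was 0.0604. The FGFR1 call was also lost when WT1 siRNA culture 2 or 3, any 1 scrambled culture, reagent culture 2, or number 2 or 3 was left out (adjusted p from 0.0523 to 0.315), and without WT1 siRNA culture 1 FGFR1 was called against both controls (0.47, adjusted p = 0.0105, and 0.38, adjusted p = 0.0288).

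The remaining FGF receptors were not called. FGFR2 (208234_x_at) read 7.04, 6.82 and 7.08 with the WT1 siRNA, 7.03, 6.84 and 6.70 with scrambled and 6.94, 6.74 and 6.67 with reagent. It differed by 0.12 from scrambled and 0.20 from reagent (adjusted p = 0.538 and 0.298). The other FGFR2 probe sets did not share a direction against scrambled, from −0.11 to 0.28, and none was called. The 0.28 was 203638_s_at (adjusted p = 0.222), with −0.10 from reagent and scrambled below reagent by −0.37 (adjusted p = 0.730 and 0.163). FGFR3 read 7.71, 7.53 and 8.03 with the WT1 siRNA, 7.42, 7.59 and 8.23 with scrambled and 7.64, 7.69 and 8.43 with reagent. Its differences were 0.01 from scrambled and −0.16 from reagent (adjusted p = 0.983 and 0.455), and number 3 was high in every group. FGFR4 was dim and gave −0.03 and 0.07.

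Of the FGF ligands, FGF2, a broadly acting fibroblast growth factor, read 8.44, 8.77 and 8.35 with the WT1 siRNA, 8.42, 8.98 and 8.95 with scrambled and 8.42, 8.83 and 8.82 with reagent. In number 1 the groups read 8.42 to 8.44, and the WT1 siRNA culture was lowest in numbers 2 and 3, for a difference of −0.26 from scrambled (SE 0.105, adjusted p = 0.251). Its second probe set gave 0.08 (adjusted p = 0.710). FGF5 gave 0.02 and 0.01 and had the narrowest range of group means of all members, 0.02.

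VEGFC (209946_at, its only probe set) read 7.85, 9.11 and 7.90 with the WT1 siRNA, 8.40, 9.01 and 8.02 with scrambled, and 7.50, 8.45 and 7.62 with reagent. Both siRNA groups lay above reagent in every number, and number 2 was high in all 3 groups. Scrambled was higher than reagent by 0.62 (SE 0.115, adjusted p = 0.0406), 1.54-fold. WT1 siRNA differed from reagent by 0.43 (95% interval 0.17 to 0.69, adjusted p = 0.117) and from scrambled by −0.19 (adjusted p = 0.476). The call against reagent was lost without any 1 scrambled culture, any 1 reagent culture or any 1 number (adjusted p from 0.0586 to 0.305).

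VEGFB, a ligand of FLT1, read 6.83, 6.68 and 8.08 with the WT1 siRNA, 6.87, 6.56 and 7.87 with scrambled and 6.62, 6.74 and 7.55 with reagent, and it is singled out for its spread between numbers, after its values were seen. Number 3 was the highest in each group. Its differences were 0.10 and 0.23 (adjusted p = 0.737 and 0.357). The VEGF receptors KDR, which carries most of the growth signal in blood vessels, FLT1 and FLT4, the VEGFC receptor, gave 0.05 to 0.07 against scrambled and −0.02 to 0.11 against reagent, with 0 called.

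GAS6, the ligand of the TAM receptors (TYRO3, AXL and MERTK), read 9.10, 9.25 and 9.27 with the WT1 siRNA (1598_g_at), 8.99, 8.94 and 9.05 with scrambled and 9.01, 9.13 and 9.12 with reagent. The WT1 siRNA and scrambled groups did not overlap, and the difference of 0.22 (SE 0.0613, adjusted p = 0.0984) did not pass. Its other probe set (202177_at) read 7.73, 8.07 and 8.57, then 7.52, 7.61 and 8.07, then 7.34, 7.90 and 8.31 in the same order of groups. That probe set rose by 0.39 against scrambled (SE 0.0877, adjusted p = 0.0451), and by 0.27 against reagent it did not pass (adjusted p = 0.177). With the mean over both probe sets GAS6 was called against scrambled (0.30, adjusted p = 0.0393). The call of 202177_at was lost with only the 2 groups fitted (adjusted p = 0.0568), without any 1 WT1 siRNA culture, without scrambled culture 2 or 3, without reagent culture 2 or 3, and without number 2 or 3 (adjusted p from 0.0553 to 0.351).

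Of the TAM receptors, TYRO3 read 8.26, 8.66 and 8.68 with the WT1 siRNA, 8.46, 8.48 and 8.80 with scrambled and 8.28, 8.50 and 8.64 with reagent, and its differences of −0.05 and 0.06 changed sign between numbers. MERTK was dim and gave 0.06 and −0.05. AXL, which was not on the list of members, gave −0.01 (adjusted p = 0.970) and 0.01 (adjusted p = 0.961).

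**Figure D2:**
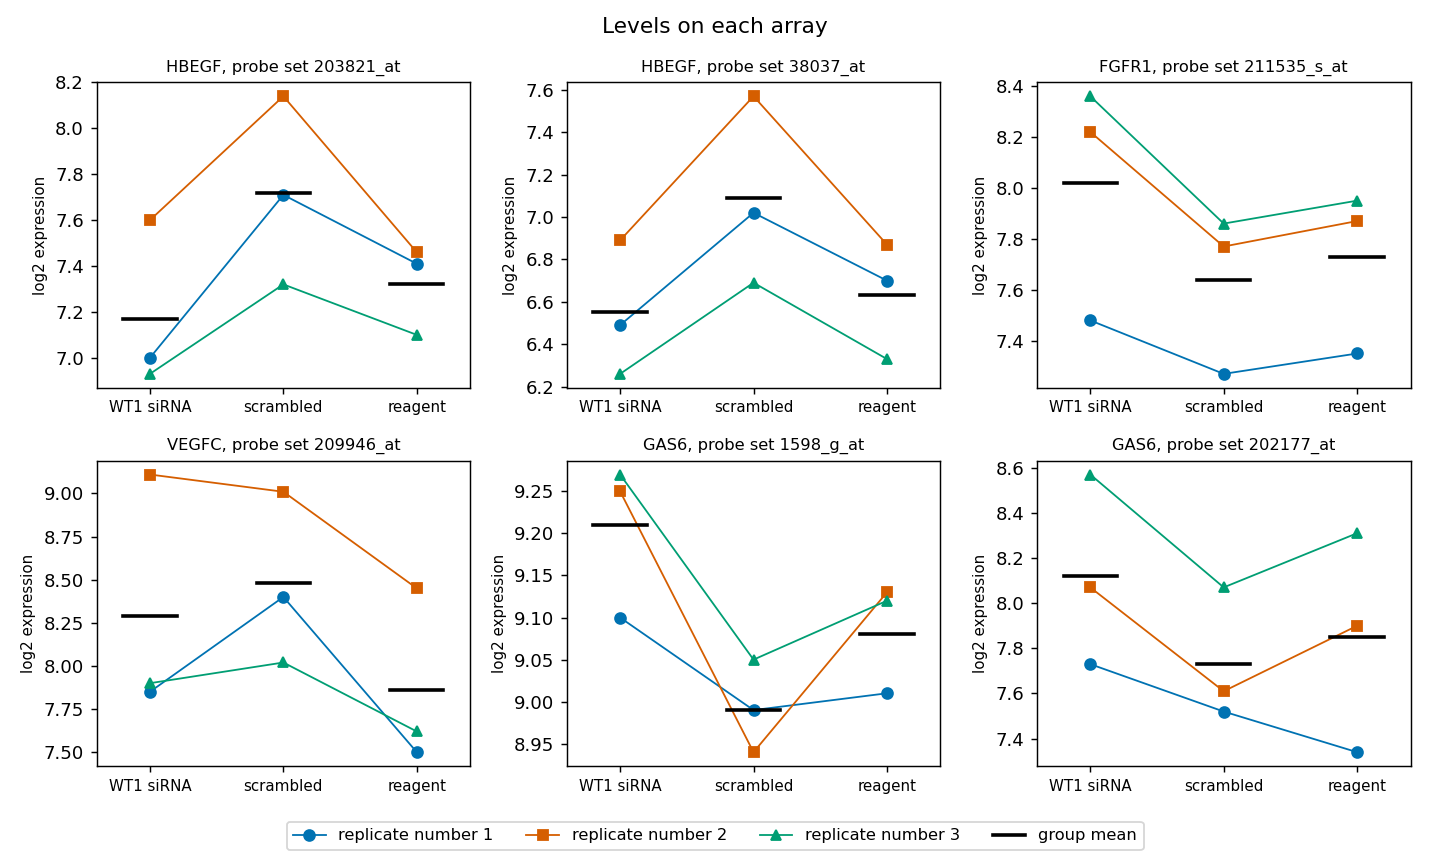
Log2 expression (vertical axes, each with its own range) of HBEGF, FGFR1, VEGFC and GAS6 probe sets in the 3 groups, with 1 line and symbol per replicate number and a black bar for the group mean. Both HBEGF panels peak in the scrambled group in every number, FGFR1 is highest with the WT1 siRNA in every number, and VEGFC is lowest with reagent alone in every number.

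MET, the receptor of hepatocyte growth factor (HGF), read 10.59, 11.38 and 10.74 with the WT1 siRNA (203510_at), 10.91, 11.31 and 10.99 with scrambled and 10.87, 11.28 and 10.91 with reagent. The WT1 siRNA culture was lowest in numbers 1 and 3 and highest in number 2, and the difference was −0.17 from scrambled (SE 0.0832, adjusted p = 0.359) and −0.12 from reagent (adjusted p = 0.554). Its 3 other probe sets gave −0.07, −0.05 and 0.04 against scrambled. HGF itself was dim and gave 0.05 and 0.04. KIT, a receptor of blood and pigment cell precursors, gave 0.05 and 0.18 (adjusted p = 0.872 and 0.386), and its ligand KITLG gave 0.10 and 0.02 with an SE of 0.141.

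DDR2, a receptor that binds collagen, read 7.25, 7.16 and 7.30 with the WT1 siRNA, 7.03, 6.97 and 7.13 with scrambled and 7.03, 7.11 and 7.21 with reagent. The WT1 siRNA and scrambled groups did not overlap, and the difference of 0.19 (SE 0.0593, adjusted p = 0.125) did not pass. ROR2, a receptor for WNT5A, was dim and read 4.04, 4.12 and 4.55, then 4.03, 4.00 and 4.24, then 4.14, 4.27 and 4.48 in the same order of groups, or 0.14 above scrambled (adjusted p = 0.353). Its relative ROR1 gave 0.08, and NTRK2, the receptor of brain-derived neurotrophic factor, gave 0.00 by the probe set that stood for it. The other NTRK2 probe sets, dimmer still, gave −0.07, −0.25 and −0.11 against scrambled. The −0.25 (221796_at) was lower in 3 of 3 numbers and did not pass (adjusted p = 0.0916), nor did its −0.14 from reagent (adjusted p = 0.386).

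Among the Eph receptors 0 of 5 were called in any comparison. EPHA3 had the second widest error, with 10.27, 9.53 and 9.48 with the WT1 siRNA, 9.57, 9.30 and 9.65 with scrambled and 9.52, 9.42 and 9.75 with reagent. WT1 siRNA culture 1 was the highest of the 9, and the difference from scrambled was 0.26 (SE 0.158, adjusted p = 0.487). In probe set 206071_s_at the same culture was again the highest, at 8.21 against 7.75 and 7.62 in number 1. That probe set was higher than scrambled in 3 of 3 numbers, by 0.46, 0.23 and 0.14, and the difference of 0.28 (adjusted p = 0.211) did not pass, nor did that of 0.22 from reagent (adjusted p = 0.346). EPHA2 read 9.54, 9.50 and 9.53 with the WT1 siRNA, 9.72, 9.56 and 9.54 with scrambled and 9.60, 9.40 and 9.44 with reagent, within 0.13 in every comparison.

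EPHA4 read 6.30, 6.46 and 6.36 with the WT1 siRNA, 6.70, 6.47 and 6.47 with scrambled and 6.51, 6.34 and 6.17 with reagent. Scrambled was the highest in every number, and the differences were −0.18 from scrambled (adjusted p = 0.350) and 0.04 from reagent, with scrambled 0.21 above reagent (adjusted p = 0.364). EPHB4, a receptor of EFNB2 known from veins, read 8.05, 8.20 and 8.43 with the WT1 siRNA, 8.00, 8.01 and 8.34 with scrambled and 7.95, 8.07 and 8.27 with reagent. It was highest with the WT1 siRNA in every number, by 0.11 and 0.13 (adjusted p = 0.396 and 0.334). The other EPHB4 probe set (216680_s_at) gave 0.08 and 0.09 (adjusted p = 0.723 and 0.635), with the WT1 siRNA culture the lowest in number 1. EPHB3 gave 0.03 and −0.01.

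The ephrins were not called either. EFNB3, a transmembrane ephrin, read 7.39, 7.29 and 7.42 with the WT1 siRNA, 7.38, 7.16 and 7.29 with scrambled and 7.01, 6.93 and 7.19 with reagent. Reagent was the lowest in every number and did not overlap with the WT1 siRNA group. The difference of WT1 siRNA from reagent was 0.32 (SE 0.0655, 95% interval 0.17 to 0.47, adjusted p = 0.0528), and scrambled minus reagent was 0.23 (adjusted p = 0.160). Among 18 alternatives it passed only when the dimmest 40% of probe sets were left out before adjustment (adjusted p = 0.0421), while fitting only the 2 groups gave 0.155. The other EFNB3 probe set (210883_x_at) differed from reagent by 0.07 (adjusted p = 0.735), and the mean over its probe sets by 0.19 (adjusted p = 0.123). EFNB2, a ligand of EPHB4, read 11.09, 10.69 and 11.06, then 10.86, 10.82 and 11.16, then 10.99, 10.82 and 11.14, with differences of 0.00 and −0.04. Its other probe set (202669_s_at) gave 0.16 against scrambled and 0.20 against reagent (adjusted p = 0.344 and 0.262), the latter higher in 3 of 3 numbers. EFNA1, which is held to the membrane by a lipid anchor, gave −0.14 and −0.06, and EFNB1 gave −0.03 and 0.07.

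Replicate number set these genes apart more than treatment did. Of the 37 members, 19 (51.4%) differed between numbers by an F test with an adjusted p under 0.05, where 52.1% of all genes did. The range of the 3 number means was above the range of the 3 group means for 29 of 37 (78.4%), against 80.9% of all genes. Its median was 0.29 (0.25 over all genes), against 0.13 for the group means (0.12 over all genes). The members thus followed the share seen across the arrays. RNA from numbers differed in the control probe sets at the ends of the ACTB transcript: the 3′ minus 5′ signal was 0.05 to 0.09 in number 1, 0.55 to 0.68 in number 2 and 0.26 to 0.50 in number 3, and for GAPDH −0.02 to −0.01, 0.16 to 0.18 and 0.10 to 0.11. The part of these signals in the differences between numbers was not tested.

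VEGFB and VEGFC were the members whose number means spanned over 1 log2 unit (5.41%, against 1.81% of all genes). VEGFB averaged 6.77, 6.66 and 7.83 in numbers 1, 2 and 3 (adjusted p = 5.62e-05), and VEGFC 7.92, 8.86 and 7.85 (adjusted p = 0.000181). The 2 ligands were thus high in different numbers. Of the 19, number 3 was the highest for 8 (ERBB2, TYRO3, FGFR1, FGFR3, VEGFB, ROR2, EPHB4 and EFNB2), number 2 for 9 (HBEGF, MET, FGF2, KIT, KITLG, KDR, VEGFC, NTRK2 and ROR1) and number 1 for NRG1 and EPHB3. KIT averaged 5.77, 6.47 and 6.46, FGFR1 7.37, 7.96 and 8.06, and FGFR3 7.59, 7.60 and 8.23.

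**Figure D3:**
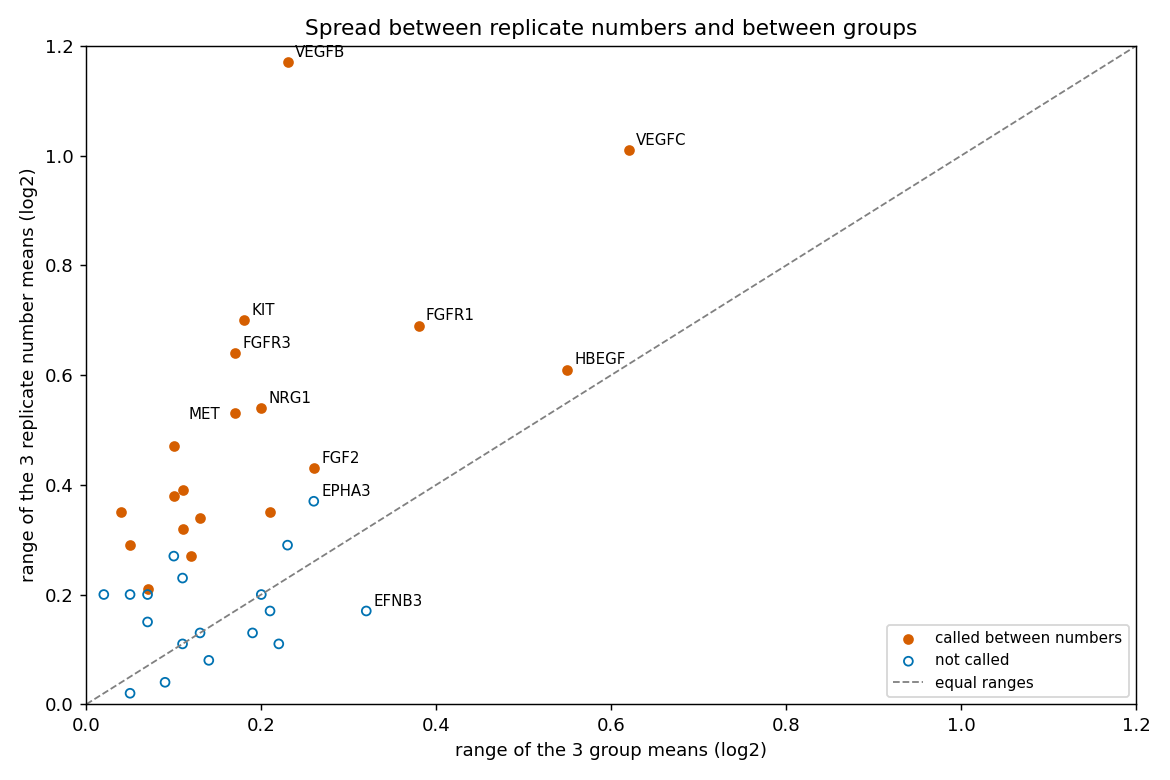
Range of the 3 replicate number means (vertical axis, log2) against the range of the 3 group means (horizontal axis, log2) for each of the 37 genes, with filled points for the 19 called between numbers and a dashed line where both ranges are equal. Points above the line are the 29 genes that spread more between numbers than between groups, VEGFB farthest up at 1.17, and EFNB3 lies below the line.

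Probe sets of the same gene did not always follow the same numbers, and 43 of the 93 (46.2%, with 49.7% of all probe sets) differed between numbers. The genes named for this were chosen after their values were seen. MET probe set 213816_s_at averaged 7.99, 6.26 and 5.53 in numbers 1, 2 and 3, a 5.49-fold span (adjusted p = 7.6e-06), with 7.96, 8.13 and 7.88 in the WT1 siRNA, scrambled and reagent cultures of number 1 and 5.47, 5.72 and 5.41 in those of number 3. The probe set that stood for MET averaged 10.79, 11.32 and 10.88 and peaked in number 2. The remaining 2, 211599_x_at and 213807_x_at, were highest in number 1, at 9.84, 9.54 and 9.39 and at 9.11, 8.92 and 8.72.

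EFNB2 probe set 202669_s_at averaged 8.82, 9.30 and 9.59 (adjusted p = 0.000157), lowest in number 1, while 202668_at averaged 10.98, 10.77 and 11.12, lowest in number 2. For EPHA3, 206071_s_at averaged 7.86, 7.34 and 7.15 (adjusted p = 0.00106). Probe set 202177_at of GAS6 averaged 7.53, 7.86 and 8.32 (adjusted p = 0.000287), and 1598_g_at averaged 9.04, 9.11 and 9.15 (adjusted p = 0.309). The NRG1 probe sets 206343_s_at, 208241_at, 206237_s_at and 208230_s_at were all highest in number 1 and lowest in number 3.

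**Figure D4:**
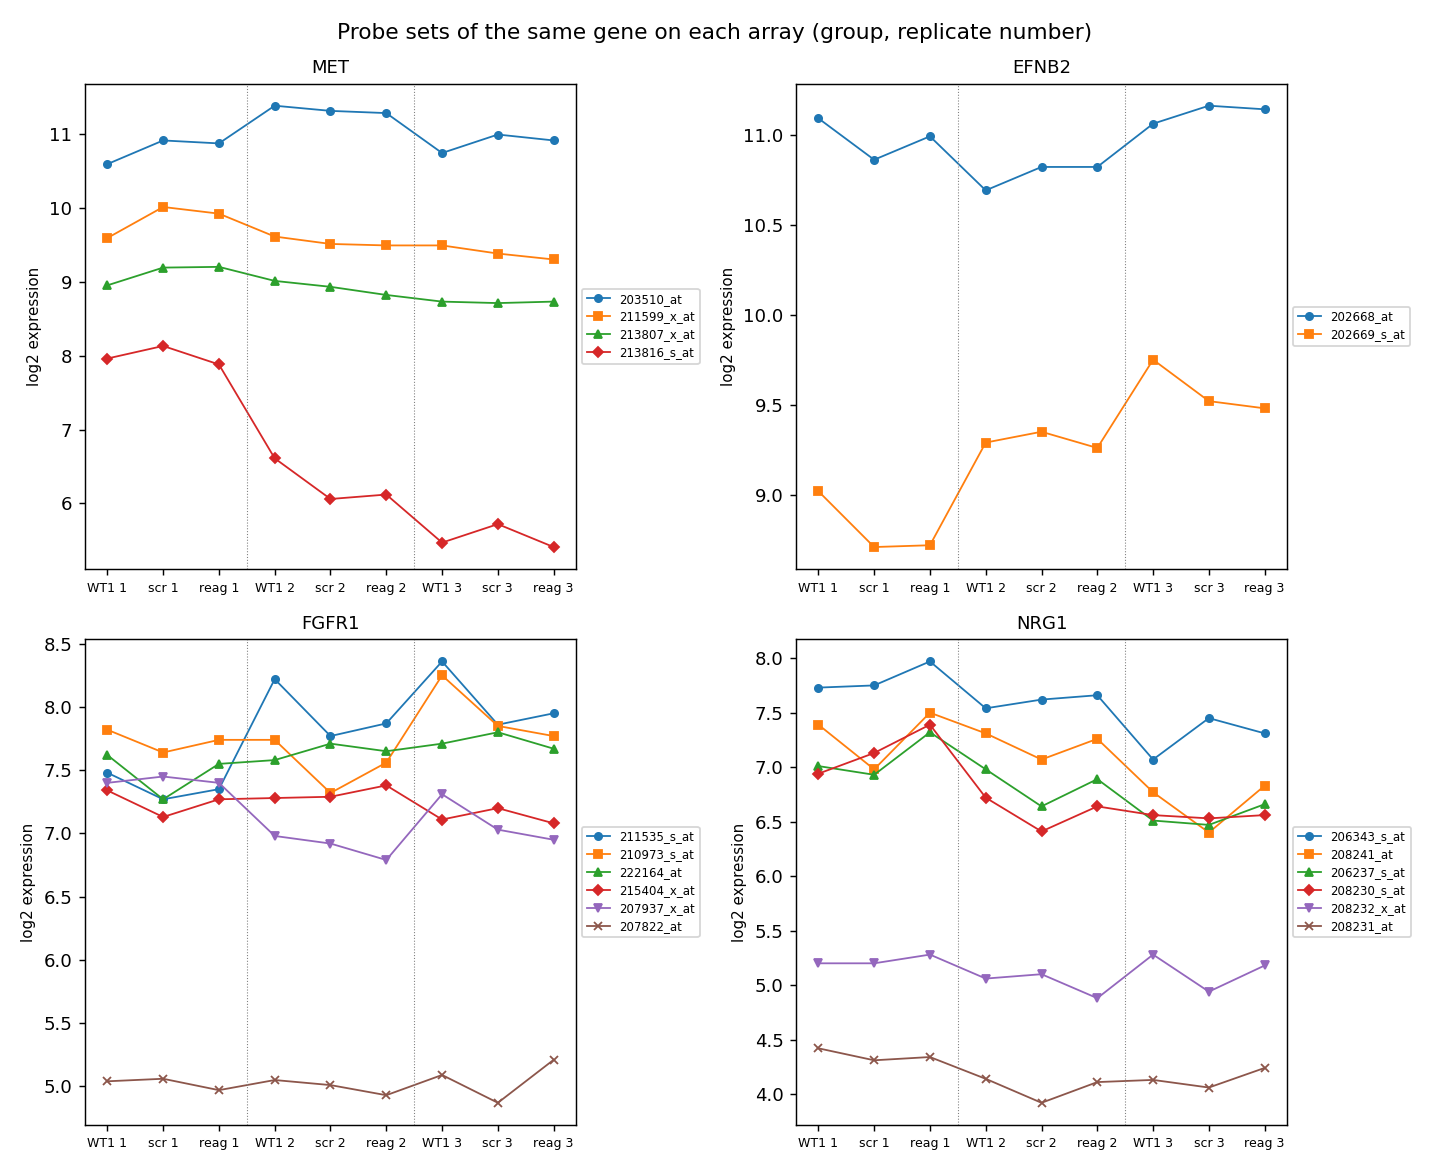
Log2 expression of every probe set of MET, EFNB2, FGFR1 and NRG1 on the 9 arrays, ordered by replicate number (dotted lines) and within it WT1 siRNA (WT1), scrambled (scr) and reagent alone (reag). MET 213816_s_at steps down from 7.99 to 6.26 and 5.53 between numbers while the groups of a number stay together, and the brighter MET probe set peaks in number 2.

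Genes around the members were counted from lists in the same way, beside 3.70%, 1.40% and 1.21% of all genes called for WT1 siRNA against scrambled, WT1 siRNA against reagent and scrambled against reagent. Of 27 further receptor tyrosine kinases 25 were measured, and 0 were called in any comparison. The median difference was 0.00 against scrambled and 0.06 against reagent, and EGFR gave −0.08 and 0.24 (adjusted p = 0.726 and 0.198), with scrambled 0.31 above reagent (adjusted p = 0.117). Of 33 further ligands and coreceptors 28 were measured, and 0 were called. Their smallest adjusted p-values against scrambled were 0.0599 for VEGFA, the main growth factor of blood vessels, at 0.37, and 0.0879 for its coreceptor NRP2 at 0.33, and against reagent NRP2 gave 0.37 (adjusted p = 0.0846) and EFNA4 0.32 (adjusted p = 0.0742). PROS1, another ligand of TAM receptors, gave −0.44 against scrambled (adjusted p = 0.108).

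Below the receptors, 33 of 45 adaptors and kinases were measured, and only IRS1, the docking protein of the insulin receptors, was called. IRS1 read 8.60, 9.69 and 9.35 with the WT1 siRNA, 8.93, 9.84 and 9.46 with scrambled and 8.35, 9.17 and 9.05 with reagent. Both siRNA groups were above reagent in every number, by 0.55 for scrambled (adjusted p = 0.0114) and 0.35 for WT1 siRNA (adjusted p = 0.0560). The IRS1 call was lost without scrambled culture 1 or 2, reagent culture 2, or number 1 or 2 (adjusted p from 0.0591 to 0.287). FYN, a SRC family kinase, gave 0.50 for WT1 siRNA against reagent (adjusted p = 0.0514), and CBLB, which marks receptors for degradation, gave 0.32 against scrambled (adjusted p = 0.0762). The median over the 33 was −0.01 in all 3 comparisons.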

How the data were processed

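Labelled RNA from 9 cultures was hybridised to Affymetrix arrays. Per the submitters' processing notes the arrays were processed with RMA (robust multi-array average), which corrects background and normalises between arrays, and the authors deposited log2 expression for each probe set. The sources used here name neither the chip definition nor the software version. RMA makes arrays alike in distribution, so a shift shared by most genes would not be seen.

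The log2 values were used as deposited, without 62 control probe sets. In R 4.3.3, limma 3.58.1 (lmFit, contrasts.fit and eBayes) was run on all 9 arrays, with 1 mean per group and the replicate number as a block (4 residual degrees of freedom), two-sided, with Benjamini-Hochberg adjustment over 22215 probe sets. The block follows the rule that chose the members, which compares groups within numbers. Array deviations from group means correlated at 0.647 to 0.849 for the 9 pairs with the same number and at −0.611 to −0.0311 for the 18 other pairs. The deviations of a group sum to 0, so values above 0 for the same number force values below 0 among the other pairs. Numbers held 71.4% of the sum of squares against 15.6% for groups. Of the probe sets, 19064 had 1 gene symbol in the platform annotation, 1043 several and 2108 none, and 19052 were looked up by gene ID in the RefSeq table, which changed 0 symbols. The members, the lists and the block were chosen with earlier results of these data known. Values on every array are given for members called in any comparison, the 10 brightest, and the 6 uncalled members with the smallest p in each comparison with the WT1 siRNA. They are also given for WT1 as the check, for IRS1, and for some further members (TGFA, VEGFB and single probe sets) chosen after their values were seen. Up to 4 genes per pathway list are named, and apart from IRS1 these have their differences only. The code was also run on data simulated with independent noise from the model that is fitted, with differences of known size added. That run checks the code and does not show how reliable the calls are in these data. Figures were drawn with matplotlib 3.10.9. In all, 18 alternatives were run: no block, leaving out each culture and each number, median centring, a filter on dim probe sets, eBayes with trend and robust, fitting 2 groups at a time, and the mean over probe sets.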

Additional observations from a re-analysis of the deposited data

How the results depend on the processing

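Of the called probe sets of members, WT1, IRS1 and SLC1A3, none turned its direction under the 17 or 18 alternatives run for each. Many of these alternatives could not turn it. Dropping the block, filtering dim probe sets or changing eBayes leaves the difference itself as it was. Where all numbers share a sign, leaving out 1 number cannot turn it either. Without the replicate block, 0 members were called in any comparison (smallest adjusted p = 1.00; 3, 1 and 1 members at an unadjusted p under 0.05), and 4, 0 and 1 probe sets were called for WT1 siRNA against scrambled, WT1 siRNA against reagent and scrambled against reagent, in place of 726, 277 and 242 with it. Of all 22215 probe sets, 825, 616 and 483 had an unadjusted p under 0.05 without the block, in the same order. The median SE of the members was 0.138 without the block and 0.0790 with it. Leaving out a culture or a number gave 0 to 2 called members against scrambled, 0 to 1 against reagent, 0 to 1 for scrambled against reagent and 0 to 1 against both controls, and 2 to 706, 0 to 465 and 3 to 387 probe sets. Leaving out a single culture gave 14 to 22 members between numbers. Leaving out the dimmest 40% of probe sets called 1 member against reagent (EFNB3). With trend and robust, 1091, 595 and 485 probe sets were called. With only the 2 groups of a comparison fitted, 1 member was called against scrambled (HBEGF), and 390, 3 and 535 probe sets were called. Centring each array on its median kept HBEGF, FGFR1 and VEGFC called. The mean over probe sets called HBEGF and GAS6 against scrambled. Signals of dim genes limit what could be seen for 12 of the 37 members.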
